A study of Mus musculus with 6 samples.

Results

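The genes described here are 10 surface molecules of antigen-presenting cells, Cd80, Cd86, Cd274, Cd40, Icam1, Cd44, Slamf1, Cd69, Clec4e and Cd83. They were chosen by name out of the 18429 genes of a single-cell count matrix, and all 10 are in it. Macrophages were grown from mouse bone marrow in medium conditioned by L929 cells and were assayed on day 7. Both genotypes carried Rosa26-ERt2Cre, a Cre recombinase driven from the ubiquitous Rosa26 locus that acts in the nucleus only when tamoxifen is bound, and both received 200 nM 4-hydroxytamoxifen from 96 h of culture. Wild-type cells had intact Rad21, while Rad21-/- cells carried loxP-flanked Rad21 alleles that Cre deletes. Rad21 is a core subunit of cohesin, the ring complex that folds chromosomes into loops. The mice were of a mixed genetic background. Cells of each genotype were untreated or had 2 or 8 h of LPS at 10 ng/ml, a bacterial outer membrane component that is sensed by Toll-like receptor 4. This gives 6 samples with 1 sample per group, so that no difference below has a replicate check, no p-value is given, and all intervals cover counting error only. The comparisons ask how these macrophages respond to LPS in the presence and absence of cohesin.

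A macrophage that meets a microbial product changes what it displays to T cells. Cd80 and Cd86 are the B7 ligands that engage Cd28 on T cells and deliver the second, co-stimulatory signal beside the antigen receptor, and Cd274, also called PD-L1, is a B7 relative that restrains T cells through PD-1. Cd40 is a receptor of the TNF receptor superfamily through which helper T cells license the presenting cell. Icam1 binds integrins of leukocytes and Cd44 binds hyaluronan of the matrix. Slamf1 is a self-binding receptor of the SLAM family, Cd69 and Clec4e are C-type lectin-like receptors, of which Clec4e (Mincle) recognises mycobacterial glycolipids, and Cd83 is an immunoglobulin-like protein known as a marker of mature dendritic cells.

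MARS-seq, a plate-based method that sorts single cells into wells and counts transcripts from their 3′ ends by unique molecular identifiers (UMIs), gave 1417409 to 2195921 UMIs per sample in 1362 cells, with sample medians of 5577 to 7055.5 UMIs per cell. Of the wells, 17 held more than 25000 UMIs each, and such wells made up 45.5% of the UMIs of the wild-type 2 h sample. To compare samples at equal depth, each cell was thinned at random to 3800 UMIs, and shallower cells, 21 to 47 per sample, were left out. Rad21 itself had a UMI in 25.9%, 26.9% and 18.7% of unthinned wild-type cells (untreated, 2 h and 8 h) and in 2.96%, 6.45% and 5.80% of Rad21-/- cells, so the labels and the targeted gene go the same way. All 8 macrophage markers examined, among them Adgre1, Csf1r, Cd68 and Lyz2, had UMIs in every sample. Of 6 B cell markers 3 were in the matrix, with a summed level of 105.3 to 255 UMIs per 1000 thinned cells in the wild-type samples and 650 to 767 in the Rad21-/- samples, and their part in the genotype differences below was not tested. Of 8 dendritic cell markers 4 were in the matrix, at 118 to 193, of 8 T cell markers 4 at 143 to 494, and of 8 neutrophil markers 2 at 0 to 43.9. Markers of NK cells (2 of 4) and of mast cells or basophils (1 of 4) lay between 26.3 and 104. No pool and well name occurred in more than 1 sample.

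Levels are given as UMIs per 1000 thinned cells with the exact Poisson interval, and a cell with at least 1 UMI is called positive. A fold is the ratio of levels of 2 samples with its exact interval. Where a sample had no UMI after thinning, 3 UMIs stood in for it and the fold is a bound. Of the 18429 genes, 12720 had a UMI in at least 5% of all cells, all 10 members among them, and these are the background for every count of genes past 2-fold. Slamf1 passed that filter through its 8 h cells and Cd69 through its cells with LPS. Cd69 had a UMI in 1.67% of untreated wild-type cells and in no untreated Rad21-/- cell. Because counts are of 3′ tags and not scaled by transcript length, levels are compared between samples and never between genes.

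The 250 bases before the annotated start were available for 6 of the 10 members in RefSeq (GRCm38.p6), namely Cd80, Cd274, Icam1, Cd44, Slamf1 and Clec4e. The 4 shown are the window of Icam1, where both motif matches lie, and those of Cd274, Slamf1 and Clec4e, the members whose levels set the genotypes furthest apart below. The start used for Cd274 lies inside the span of its gene model. Capitals mark motif matches, and each sequence reads 5′ to 3′ on the strand of its gene.

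Icam1, chr9:21015690-21015939, plus strand: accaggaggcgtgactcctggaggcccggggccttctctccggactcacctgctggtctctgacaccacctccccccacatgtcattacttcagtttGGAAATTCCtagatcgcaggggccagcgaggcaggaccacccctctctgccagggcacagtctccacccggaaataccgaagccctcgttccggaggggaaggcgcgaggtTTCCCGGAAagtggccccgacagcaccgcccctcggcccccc
Cd274, chr19:29367188-29367437, plus strand: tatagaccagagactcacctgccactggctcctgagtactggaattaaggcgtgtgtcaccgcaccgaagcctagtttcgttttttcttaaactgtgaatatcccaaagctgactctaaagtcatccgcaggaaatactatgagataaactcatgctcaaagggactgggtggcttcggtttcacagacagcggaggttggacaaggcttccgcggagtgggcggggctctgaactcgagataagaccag
Slamf1, chr1:171766882-171767131, plus strand: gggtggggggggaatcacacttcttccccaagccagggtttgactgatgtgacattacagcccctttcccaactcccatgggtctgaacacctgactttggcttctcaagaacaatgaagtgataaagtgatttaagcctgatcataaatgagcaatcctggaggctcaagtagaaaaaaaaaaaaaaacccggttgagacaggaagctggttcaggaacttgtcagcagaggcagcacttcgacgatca
Clec4e, chr6:123289872-123290121, minus strand: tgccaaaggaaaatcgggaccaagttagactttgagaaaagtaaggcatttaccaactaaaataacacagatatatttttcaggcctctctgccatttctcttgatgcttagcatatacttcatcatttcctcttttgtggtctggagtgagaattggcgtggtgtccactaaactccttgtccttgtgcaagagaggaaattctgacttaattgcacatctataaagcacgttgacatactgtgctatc

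Motifs of factors that LPS is known to activate were searched on both strands of these windows. The STAT word TTCNNNGAA was found in Icam1, as TTCCCGGAA 42 to 34 bases before the start, and in 7.02% of 32851 mouse promoter windows of the same length. Its match overlaps itself on the other strand, since the word is its own reverse complement. The kB-like word GGAAATTCC, added to the search after the sequences had been seen, was also found in Icam1 and in 0.286% of all windows. None of the 6 members held a match to the consensus kB motif, the interferon-stimulated response element or the AP-1 word TGACTCA on either strand, which occurred in 7.25%, 2.98% and 4.46% of all windows. A match is a string of letters and was not tied to binding here.

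LPS was followed by higher levels of most of the 10 genes in both genotypes. In wild-type cells 7 of the 10 were at least 2-fold higher at 2 h than untreated, where 6.6% of all genes were, and 8 of the 10 at 8 h, where 8.11% were. None was 2-fold lower, which 9.58% and 20.1% of all genes were at those times. In Rad21-/- cells 6 of the 10 were at least 2-fold higher at 2 h (6.66% of all genes) and 8 at 8 h (8.87%), while Cd80 was 2-fold lower at 8 h (10.4% of all genes were). The median log2 fold of the members was 2.28 and 3.83 in wild-type cells at 2 and 8 h and 1.85 and 2.99 in Rad21-/- cells, against -0.10, -0.25, -0.04 and -0.04 for all genes. Both LPS times of a genotype were set against the same untreated sample. The members were named with results of these data known, so these counts describe them and test nothing.

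**Figure D1:**
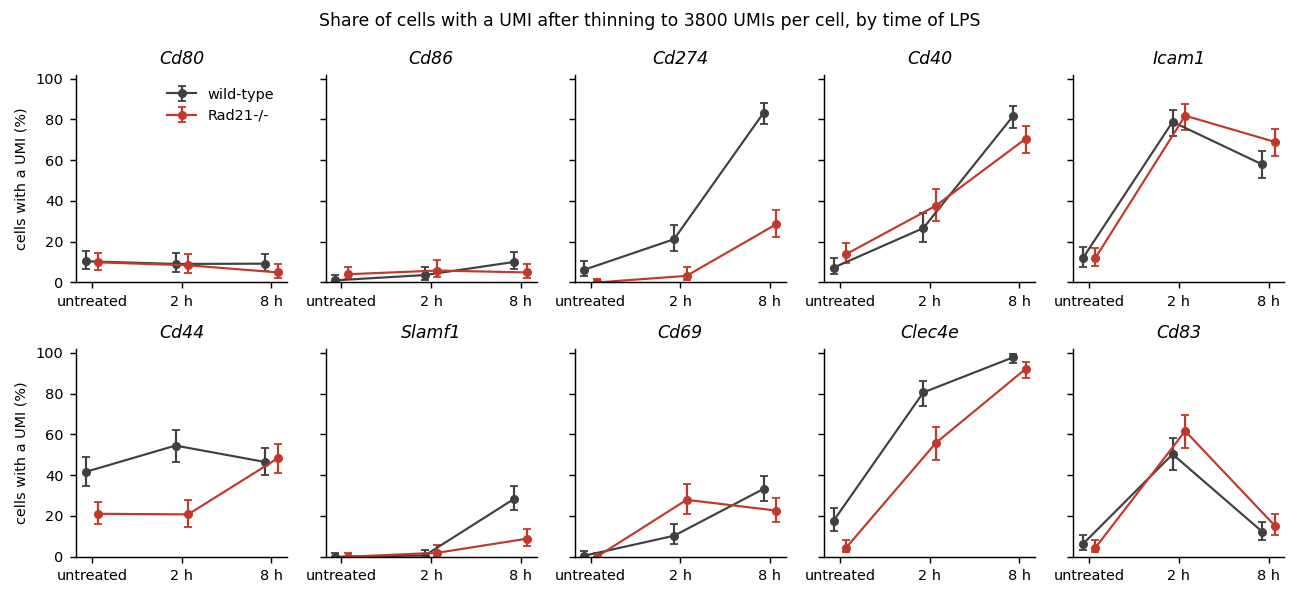
Share of thinned cells with a UMI (y axis, percent) for each gene against time of LPS (x axis), wild-type in grey and Rad21-/- in red, with exact binomial intervals as bars. Cd274 separates the genotypes most widely at 8 h, at 83.3% of wild-type and 28.6% of Rad21-/- cells, while Cd83 is high at 2 h only and Cd80 stays near 10.4% or below.

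The 2 activating B7 ligands were sparse. Cd80 stood at 114.6 UMIs per 1000 wild-type cells untreated, 96.97 after 2 h and 92.1 after 8 h, and at 103, 84.4 and 49.3 in Rad21-/- cells. The counting intervals of all 6 samples overlapped, and the lowest, Rad21-/- at 8 h, was 2.09-fold below untreated with an interval of 0.958 to 4.93. That value was 1.58-fold by mean CPM (counts per 1e6 UMIs of a cell, averaged over cells), 1.61-fold in another random draw, 1.05-fold at a depth of 5500 UMIs per cell, and 1.72-fold to 1.96-fold with 1 or another of 4 library pools left out. A UMI of Cd80 was found in 12.9% to 16.7% of unthinned cells. Among T cell markers this is close to the 12.8% of all cells for Lck and below the 19.6% for Cd28. It is above the 5.87% for Cd3g and 3.38% for Cd4, the other T cell markers in the matrix. Shares of this size are therefore not read as expression on their own, for Cd80 or for other members. The Cd86 shares of 1.67% to 15.6% did not exceed that of Cd28 either.

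Cd86 was at 10.4 per 1000 wild-type cells untreated, which is 2 UMIs in 192 cells, then at 48.5 after 2 h and 131.6 after 8 h. The 8 h level was 12.6-fold above untreated, with an interval of 3.21 to 109. With 1 or the other of the 2 untreated pools that held these UMIs left out it was 19.1-fold or 23.8-fold, and the 2 h fold was 7.03 or 8.78 in place of 4.65. That 2 h fold had an interval of 0.929 to 45.0, which spans 1, and was 2.48 at a depth of 5500 UMIs per cell. In Rad21-/- cells Cd86 was at 40.4, 71.4 and 54.2, and the 8 h to untreated ratio of 1.34 had an interval of 0.506 to 3.67. The wild-type 8 h sample thus stood highest, yet its 8 library pools varied. In 1 pool the level was 455 per 1000, from 5 UMIs in 11 thinned cells, and 2 others were at 0. Cells with both Cd80 and Cd86 numbered 0 to 2 per sample.

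Cd274 was lower in Rad21-/- cells at every time. Wild-type cells held 62.5 UMIs per 1000 untreated (interval 32.3 to 109), 273 after 2 h (199 to 365) and 1991 after 8 h (1812 to 2183). Rad21-/- cells held none untreated, 39.0 after 2 h (14.3 to 84.8) and 360 after 8 h (282 to 452). Every wild-type sample lay above the Rad21-/- sample of the same time, and the intervals of Rad21-/- cells at 8 h and wild-type cells at 2 h overlapped. Against untreated, Cd274 was 4.36-fold and 31.9-fold higher in wild-type cells at 2 and 8 h. In the Rad21-/- samples it was at least 2.90-fold and at least 26.7-fold higher, and the 2 h fold was 4.61 by mean CPM, 6.52 in the other draw and 8.93 at the greater depth, where the untreated sample held a UMI. The 8 h fold was 44.5 in the other draw and 72.9 at the greater depth. In unthinned cells the untreated Rad21-/- sample did hold 5 UMIs of Cd274, in 5 of 270 cells.

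Cd40 responded in both genotypes. The level was 88.5 per 1000 wild-type cells untreated, 448 after 2 h and 1794 after 8 h, and 152, 682 and 1887 in Rad21-/- cells. From untreated to 8 h the fold was 20.3 (12.5 to 35.1) in wild-type and 12.4 (8.70 to 18.1) in Rad21-/- cells. The 3 time points did not overlap in either genotype, and at 8 h the genotypes differed by less than their counting intervals. A UMI was present in 86.4% of wild-type and 81.7% of Rad21-/- cells at 8 h before thinning.

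Among the adhesion molecules, Icam1 was highest at 2 h. Wild-type cells held 135 UMIs per 1000 untreated, 1661 after 2 h and 934 after 8 h, and Rad21-/- cells 147.98, 2221 and 1419. The 2 h level was 12.3-fold above untreated in wild-type (8.19 to 19.1) and 15.01-fold in Rad21-/- cells (10.5 to 22.2). At 8 h it was still 6.90-fold and 9.59-fold above. Untreated cells of the genotypes overlapped, while at both LPS times the Rad21-/- sample was the higher.

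Cd44 was present before LPS and was less than 2-fold from untreated in all but 1 of its 4 LPS comparisons. Wild-type cells held 552 UMIs per 1000 untreated, 867 after 2 h and 715 after 8 h. Rad21-/- cells held 260.1, 266 and 867. The wild-type fold at 2 h was 1.57 (1.21 to 2.04), below the 2-fold mark, and that of Rad21-/- cells was 1.02 (0.669 to 1.55). At 8 h Rad21-/- cells were 3.33-fold above untreated (2.46 to 4.57) and their interval overlapped that of wild-type cells.

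Slamf1 was a late gene. No UMI was counted in 239 untreated wild-type or 270 untreated Rad21-/- cells, which as 3 UMIs of the total allows up to 1.26% and 1.11% of cells with a UMI and sets no limit on cells expressing the gene, and 4 cells of each genotype held a UMI at 2 h. At 8 h the thinned level was 412 per 1000 in wild-type (333 to 505) and 88.7 in Rad21-/- cells (52.6 to 140). This is at least 26.4-fold and at least 6.59-fold above untreated, or at least 41.4-fold and at least 9.94-fold by mean CPM. Before thinning, 39.7% of wild-type and 16.5% of Rad21-/- cells were positive at 8 h.

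Cd69, the early activation antigen of lymphocytes, was nearly absent before LPS, with 1 thinned UMI in wild-type cells and none in Rad21-/- cells. Wild-type cells held 109 UMIs per 1000 after 2 h and 478 after 8 h, and Rad21-/- cells 468 after 2 h and 281 after 8 h. The order of the genotypes was thus opposite at the LPS times, with the higher wild-type level at 8 h and the higher Rad21-/- level at 2 h. Wild-type folds over untreated were 20.9 (3.31 to 873) and 91.8 (16.1 to 3658), and their width comes from the lone untreated UMI. In the other random draw they were 8.73 and 46.7, at the greater depth 8.67 and 48.0, with pools of equal weight 38.2 and 168.4, and the 8 h fold was 57.4 by mean CPM. Without the pool that held this UMI they were at least 5.45 and at least 23.9. Rad21-/- folds were at least 34.8 and at least 20.9, and the former was at least 66.7 by mean CPM.

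Clec4e was found in nearly every cell at 8 h. Its level was 391 per 1000 untreated wild-type cells, 2382 after 2 h and 6268 after 8 h, against 53.8, 1032 and 6256 in Rad21-/- cells. At 8 h 99.2% and 96.0% of unthinned cells were positive, with 6.41 and 6.79 UMIs per positive thinned cell. Against untreated, the 8 h level was 16.0-fold higher in wild-type (12.7 to 20.5) and 116.3-fold higher in Rad21-/- cells (66.3 to 226). The larger fold goes with the lower untreated level, which was 12 UMIs in 223 thinned cells, and it came to 185.6-fold, and the 2 h fold from 19.2 to 30.6, without 1 untreated pool of 47 cells per genotype.

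Cd83 was highest at 2 h. Its level was 67.7 per 1000 wild-type cells untreated, 715 after 2 h and 144.7 after 8 h, and 44.8, 1032 and 177.3 in Rad21-/- cells. The 2 h level was 10.6-fold (5.94 to 20.4) and 23.0-fold (12.2 to 48.9) above untreated. By 8 h the wild-type fold was 2.14 (1.10 to 4.43), and it lay below 2 under mean CPM (1.62), the other random draw (1.80) and the greater depth (1.36), and between 1.75 and 1.98 with 1 or another of 3 pools left out. The Rad21-/- fold at 8 h was 3.95 (1.92 to 8.94).

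The log2 fold of a level splits into 2 parts, the share of positive cells and the UMIs per positive cell, whose log2 changes add up. For Cd274 in wild-type cells at 8 h the share gave 3.74 and the UMIs per positive cell 1.26. For Cd40 wild-type values were 3.48 and 0.86, and Rad21-/- values 2.34 and 1.29. For Icam1 at 2 h wild-type values were 2.72 and 0.90, and Rad21-/- values 2.76 and 1.15. Clec4e in Rad21-/- cells had the largest second part, 2.50 beside 4.36 for the share. In each of these the share was the larger part. A positive cell holds at least 1 UMI by definition, so at low levels this split is bound to fall on the share.

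**Figure D2:**
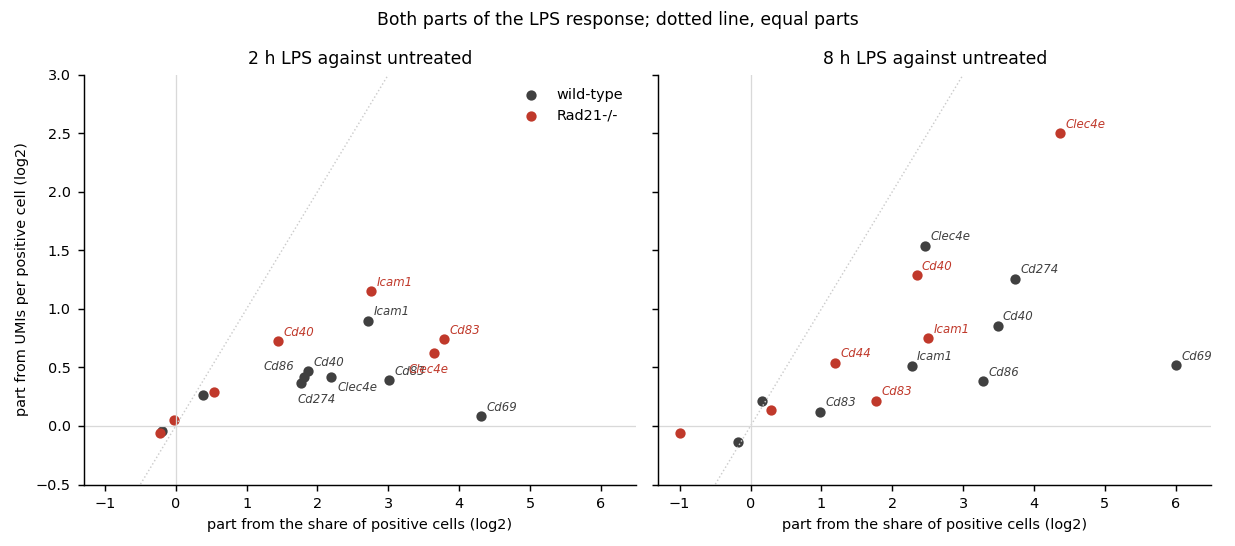
Each point is a gene in a genotype (grey wild-type, red Rad21-/-), placed by the log2 change in the share of positive thinned cells (x axis) and in UMIs per positive cell (y axis) against untreated, with 2 h on the left and 8 h on the right. Members with no UMI in the untreated sample are not drawn and points with an x value at or below 0.8 carry no name. Named points lie below the dotted line of equal parts, with Clec4e of Rad21-/- cells highest at 2.50.

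Between genotypes at the same time, members lay on both sides of no change. Untreated, 3 of the 10 were at least 2-fold lower in Rad21-/- cells (Cd274, Cd44 and Clec4e), as were 7.94% of all genes, and Cd86 was at least 2-fold higher, as were 4.63%. At 2 h the same 3 were at least 2-fold lower (10.1% of all genes) and Cd69 was higher (7.6%). At 8 h Cd274, Slamf1 and Cd86 were at least 2-fold lower (6.82%) and none was 2-fold higher (12.9%). The counts of higher members, 1, 1 and 0 of the 10, are near these shares and are not read as a result about the members. The median log2 ratio of the members was -0.08, 0.21 and -0.39 at the successive times, beside -0.04, 0.00 and 0.17 for all genes.

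Cd274 was lower in Rad21-/- cells at all 3 times, by at least 4.65-fold untreated (16.5-fold at the greater depth), 7.00-fold after 2 h (2.98 to 20.1) and 5.54-fold after 8 h (4.32 to 7.19). The 2 h value rests on 6 UMIs in Rad21-/- cells and was 3.41-fold by mean CPM of all cells and 3.53-fold in another random draw. Slamf1 was 4.65-fold lower at 8 h (2.79 to 8.18) and could not be compared earlier. For Cd274 at 8 h the share gave -1.54 of the log2 ratio and the UMIs per positive cell -0.92. The share was also the larger part for Slamf1 at 8 h (-1.68 beside -0.53), and at 2 h for Cd44 (-1.39 beside -0.31) and Cd69 (1.44 beside 0.66). The UMIs per positive cell were the larger part for Clec4e at 2 h (-0.68 beside -0.53). The same held for Icam1 at 2 h (0.36 beside 0.05) and at 8 h (0.35 beside 0.25).

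Clec4e and Cd44 were lower before LPS and at 2 h but not at 8 h. Clec4e was 7.26-fold lower untreated (3.92 to 14.7) and 2.31-fold lower at 2 h (1.91 to 2.79), while the 8 h ratio was 0.998 (0.925 to 1.08). Cd44 was 2.12-fold lower untreated (1.53 to 2.98) and 3.26-fold lower at 2 h (2.29 to 4.73), and its 8 h ratio was 1.21 (0.974 to 1.51). The untreated Cd44 ratio went to 1.79-fold without 1 pool of 46 wild-type and 48 Rad21-/- cells, 1.99-fold without another, and 1.96-fold with pools of equal weight.

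Cd69 was 4.29-fold higher in Rad21-/- cells at 2 h (2.53 to 7.64) and 1.703-fold lower at 8 h (1.22 to 2.39). The 2 h ratio was 6.64-fold at the greater depth. Moderately higher levels in Rad21-/- cells were found at 2 h for Cd40 (1.52-fold, 1.12 to 2.08), Cd83 (1.44-fold, 1.13 to 1.85) and Icam1 (1.34-fold, 1.14 to 1.57), and at 8 h for Icam1 (1.52-fold, 1.27 to 1.82). These are below the 2-fold mark. The Cd86 ratios of 3.87 untreated (0.802 to 36.9) and 0.412 at 8 h (0.186 to 0.845) rest on few UMIs, and the latter was 0.593 by mean CPM. The former was 2.51 or 7.76 with 1 or another untreated pool left out, and 1.92 with pools of equal weight.

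**Figure D3:**
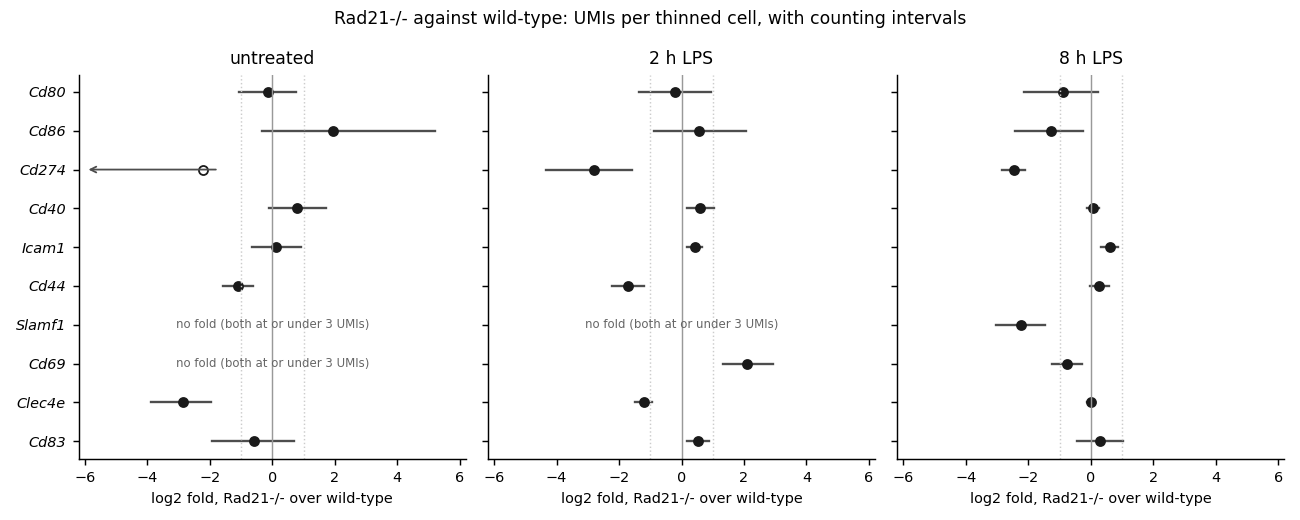
Log2 ratio of UMIs per thinned cell, Rad21-/- over wild-type (x axis), for each gene (rows) untreated and at 2 and 8 h of LPS. Dots are ratios, lines exact counting intervals, dotted lines 2-fold, and the open dot with an arrow a bound against a sample without UMIs. Cd274 lies left of -2 at every time, and Cd69 is right of 2 at 2 h and left of 0 at 8 h.

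Cells were processed in 24 library pools, each of 1 time point, and 23 of them held both genotypes, so a genotype difference can be looked at within pools while an LPS difference and the pools cannot be told apart. Pools with at least 10 cells of a genotype before thinning were used. Against untreated pools of their genotype, the pools with 2 h of LPS were all higher for 6 members in wild-type cells, where 1.56% of all genes were all higher and 0.377% all lower, and for 5 in Rad21-/- cells (1.29% and 0.307%). After 8 h this held for 6 members in wild-type cells (2.29% and 1.73%) and for 5 in Rad21-/- cells (2.18% and 0.928%). Cd40, Icam1, Cd69 and Clec4e did so in all 4 of these comparisons.

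Between genotypes at 2 h 4 pools held enough of both, and the pool levels of 4 members did not overlap between genotypes. Cd274 (0 to 60.6 per 1000 in Rad21-/-, 231 to 268 in wild-type), Cd44 (175 to 394 and 512 to 1487) and Clec4e (800 to 1432 and 2021 to 2805) were lower in Rad21-/- cells, whereas Cd69 was higher (273 to 625 and 25.6 to 149). Among all genes, 4.04% had all Rad21-/- pools below and 3.33% above the wild-type pools. Cd40 and Cd83 were higher in Rad21-/- cells in 4 of 4 pools and Icam1 in 3 of 4, with overlapping ranges.

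At 8 h, with 6 Rad21-/- and 8 wild-type pools, Cd274 (118 to 553 and 727 to 2600) and Slamf1 (0 to 231 and 267 to 744) did not overlap, where 1.56% of all genes had all Rad21-/- pools lower and 1.16% all higher. Within the 6 pools that held both genotypes, Cd69 was lower in Rad21-/- cells in 6 of 6 and Icam1 higher in 6 of 6. Clec4e was lower in 4 of 6 and Cd40 in 3 of 6. No member separated the 8 untreated pools of the genotypes, where the background was 0.377% lower and 0.149% higher. There Clec4e was lower in Rad21-/- cells in 7 of 8 pools, Cd274 in 6 with none higher, Cd44 in 6 and Cd80 in 7.

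**Figure D4:**
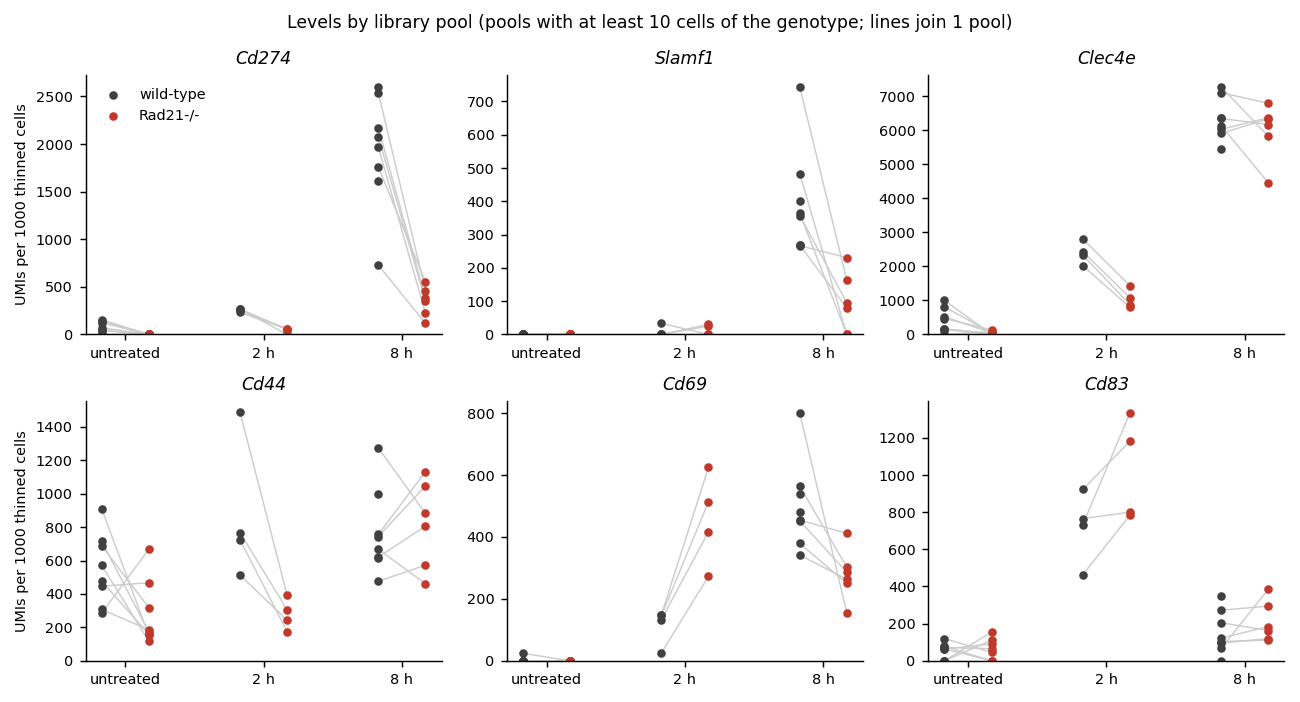
UMIs per 1000 thinned cells (y axis) of 6 members in each library pool, by time (x axis), with wild-type pools in grey, Rad21-/- pools in red and lines joining both genotypes of a pool. At 8 h all Rad21-/- pools of Cd274 are at or below 553 and all wild-type pools at or above 727, and Cd69 lines slope up after 2 h and down after 8 h.

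The number of the 10 genes found in the same thinned cell was 1.03 ± 0.96 (SD over 192 cells of 1 sample) in untreated wild-type cells, 3.36 ± 1.17 at 2 h and 4.61 ± 1.26 at 8 h. In Rad21-/- cells it was 0.70 ± 0.80, 3.05 ± 1.246 and 3.65 ± 1.28. Cells with at least 5 of the genes made up 53.9% of wild-type and 27.1% of Rad21-/- cells at 8 h, and none in either untreated sample. A UMI of Cd80 or Cd86 together with Cd40 was seen in 0.521% of untreated wild-type cells, 3.64% after 2 h and 13.6% after 8 h. In Rad21-/- cells the shares were 1.35%, 6.49% and 5.42%. The wild-type share was the higher at 8 h. The untreated and 2 h shares rest on few cells, and no order of the genotypes is read from them.

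Pairs of members with at least 5 expected cells were found together about as often as the product of their shares gives. Such pairs numbered 6, 23 and 42 in wild-type cells (untreated, 2 h and 8 h) and 2, 21 and 32 in Rad21-/- cells. Their median ratio of observed to expected cells was between 0.99 and 1.2 in the 6 samples. Both ends of this range are medians of the few pairs in untreated cells. A member found in nearly every cell holds this ratio near 1 whatever the other does. Clec4e in wild-type cells at 8 h was such a member, in 223 of 228 thinned cells. The medians therefore do not show that members are independent. The lowest was Cd86 with Slamf1 in wild-type cells at 8 h, seen in 1 cell where 6.56 were expected. The highest was Cd274 with Cd40 in wild-type cells at 2 h, seen in 13 cells where 9.33 were expected. In Rad21-/- cells at 2 h, where Cd69 was highest against wild-type, Cd83 was in 65.1% of the 43 Cd69-positive and 60.4% of the 111 Cd69-negative cells, and the intervals overlapped for all 9 other members. At 8 h Slamf1 was in 19.6% of the 46 Cd69-positive (9.36% to 33.9%) and 5.73% of the 157 Cd69-negative Rad21-/- cells (2.65% to 10.6%). It is named as the widest such split in percentage points over the samples with LPS, and its intervals overlapped. In wild-type cells at 8 h the Slamf1 shares were 34.2% and 25.7%. These counts are sparse and are given as a description.

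**Figure D5:**
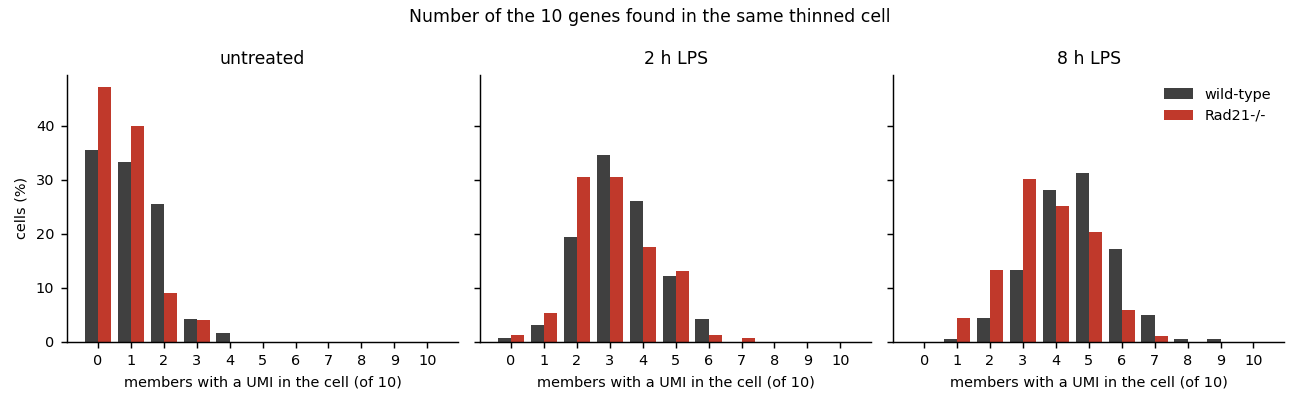
Percent of thinned cells (y axis) that hold a UMI of 0 to 10 of the genes (x axis), wild-type in grey and Rad21-/- in red, untreated and at 2 and 8 h. At 8 h the wild-type cells peak at 5 genes (31.1%) and the Rad21-/- cells at 3 (30.0%).

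A wider list of 60 relatives was taken for context, of which 51 were in the matrix and 41 had a UMI in at least 5% of cells. In wild-type cells at 2 h 9 of the 41 were at least 2-fold higher (6.6% of all genes) and 4 lower (9.58%), and at 8 h 10 were higher (8.11%) and 8 lower (20.1%). In Rad21-/- cells at 2 h 7 were higher (6.66%) and 2 lower (8.18%), and at 8 h 9 were higher (8.87%) and 8 lower (10.4%). Against wild-type cells, 3 were higher (4.63%) and 7 lower (7.94%) in untreated Rad21-/- cells, 5 higher (7.6%) and 7 lower (10.1%) at 2 h, and 2 higher (12.9%) and 9 lower (6.82%) at 8 h. The 4 and 8 lower genes of wild-type cells are close to the shares of all genes. Of the 7 SLAM family genes, 2, 3 and 3 were lower in Rad21-/- cells at the successive times and none higher. None of the 8 adhesion molecules that passed was 2-fold apart between genotypes at any time, beside the shares of all genes given above. With 8 genes this count was not tested and is not read as a trait of the group. Against untreated, 1 of the 8 was lower in wild-type cells at 8 h. In Rad21-/- cells 1 was higher at 2 h and 1 lower at 8 h.

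The 6 of these with the largest fold in any comparison are given by name. Slamf7, a SLAM family relative of Slamf1, was at 271, 636 and 2566 UMIs per 1000 wild-type cells and 40.4, 123.4 and 438 in Rad21-/- cells, or 6.71-fold, 5.16-fold and 5.85-fold lower. Tnfsf9, the 4-1BB ligand, was at 109, 6848 and 794 in wild-type against 58.3, 5078 and 562 in Rad21-/- cells, so it was high at 2 h as Cd83 was, in both genotypes. Icosl, the B7 ligand of Icos, was at 15.6, 158 and 21.9 in wild-type against 8.97, 32.5 and 14.8 in Rad21-/- cells, and its 2 h ratio was 4.85-fold lower in Rad21-/- cells (1.83 to 16.2).

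Tnfsf15, a TNF family cytokine, was at 10.4, 90.9 and 162.3 in wild-type against 4.48, 13.0 and 64.0 in Rad21-/- cells, and was 2.53-fold lower in Rad21-/- cells at 8 h (1.32 to 5.20). Fas, the death receptor, was at 26.04, 78.8 and 263 in wild-type against 40.4, 155.8 and 232 in Rad21-/- cells, and its genotype intervals spanned 1 at all 3 times. Clec10a, a galactose-binding lectin, went the other way, at 83.3, 30.3 and 48.2 in wild-type against 238, 227 and 49.3 in Rad21-/- cells, which was 2.85-fold higher untreated (1.61 to 5.34) and 7.50-fold higher at 2 h (2.93 to 24.5).

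Likeness of pattern was measured over the 6 samples as the root mean square difference of centred log2 levels, in log2 units, with smaller values for closer patterns. Closest to Cd274 were Cmpk2 (0.49), Il6 (0.58) and Edn1 (0.59). Closest to Slamf1 were Ifit1bl1 (0.15), Serpinb2 (0.15) and Mmp14 (0.21), and closest to Cd69 were Zc3h12a (0.64), Fam26f (0.70) and Ier3 (0.71). Slamf1 held 0 to 3 thinned UMIs in each untreated and 2 h sample, at or below the floor of 3 UMIs. Its small values thus rest on few counts outside 8 h and are not read as a closer likeness than that of Cd274. For Cd40 they were Bcl2a1c (0.42), Fas (0.45) and Gm29094 (0.50), for Clec4e Bcl2a1b (0.61), Ccl12 (0.62) and Bcl2a1d (0.65), for Icam1 Tfec (0.32), Ripk2 (0.44) and Zc3h12c (0.47), and for Cd83 Gem (0.48), Tlr2 (0.50) and Ripk2 (0.50). Ripk2 was thus near both Icam1 and Cd83. Bcl2a1b, Bcl2a1c and Bcl2a1d are near-identical paralogs whose reads may have been split. For Cd44, Cd80 and Cd86 the closest genes were Psmb6-ps (0.13), Rpl22l1 (0.09) and Mier3 (0.28). Cd80 held 10 to 23 thinned UMIs per sample and Cd86 held 2 to 30. The small values of Cd80 and Cd86 are thus not read as a close likeness either. Of the members themselves, Icam1 and Cd83 were the closest pair, at 0.79.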

How the data were processed

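Single macrophages of 6 samples, 1 per genotype and time, were profiled by MARS-seq. The authors mapped the reads with GEMTools to GRCm38.p4, dropped wells by spike-in, mapped and total reads, kept unambiguous reads, collapsed UMIs at a small edit distance, and deposited raw UMI counts for each gene in each cell. The submitters' processing notes also list GRCh38.p5, CanFam3.1, mm10 and FastQC, with no role given. UMI collapse removes amplification copies, but a UMI absent from a well does not show that the transcript was absent from the cell. The methods state that genes in few cells were removed, while the matrix still holds them.

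Cells were assigned to samples and library pools by their names. From the counts, each cell was thinned to 3800 UMIs without replacement (seed 11), which left out 21 to 47 cells per sample, and levels, shares and folds were derived in Python 3.11.15 (scipy 1.17.1, pandas 2.3.3, numpy 2.4.6) and drawn with matplotlib 3.10.9. Shares have exact Clopper-Pearson intervals, levels exact Poisson intervals and folds exact conditional binomial intervals, at 95%, for counting error only. No doublet caller was run, since cells were sorted singly into wells. Each group is 1 sample and no test was run, genes were counted at 2-fold or more with 3 UMIs in place of 0, and genes with at most 3 UMIs in both samples got no fold (log2 of 0 in medians). The steps were tested on simulated data.

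All 10 members were named, and of the wider list the 6 with the largest log2 fold in any of the 7 comparisons. The members and lists were chosen with earlier results of these data known. Alternatives were thinning to 5500 UMIs, mean CPM, seed 12, a fold of 1.5, genes in at least 1% of cells, wells above 25000 UMIs left out, and each pool left out; equal weight per pool was added after the data were seen. Gene names and promoter windows are from RefSeq tables of GRCm38.p6. Promoters of Cd40, Cd86, Cd69 and Cd83, and proteins, were not used here.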

Additional observations from a re-analysis of the deposited data

Results flagged for a closer look

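Cd69 went in opposite directions between the genotypes at the LPS times. The log2 ratio of Rad21-/- to wild-type cells was 2.10 at 2 h (2.73 after thinning to 5500 UMIs) and -0.77 at 8 h. Within library pools that held both genotypes the direction was the same in 4 of 4 pools at 2 h and in 6 of 6 pools at 8 h. The difference between the times was not tested, since each group is 1 sample and each pool holds 1 time point.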

How the results depend on the processing

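The 41 member folds past 2-fold kept their direction in all 767 alternatives. Of the 24 below 2-fold, 11 took the other sign in 31 of 373 alternatives, and the counting intervals of all 11 span 1. Counts of members past 2-fold moved by over 1.5 times in these cases. In Rad21-/- cells at 8 h the count of 1 lower member (Cd80) was 0 under thinning to 5500 UMIs, mean CPM and the other seed, and 0 to 1 with pools left out. For Rad21-/- against wild-type cells, the 1 higher member untreated became 2 with the other seed and 2 at a fold of 1.5. The 1 higher member at 2 h became 2 under thinning to 5500 UMIs and 2 at a fold of 1.5. At 8 h a fold of 1.5 gave 1 higher in place of 0 and 5 lower in place of 3. With each pool left out in turn, wild-type counts were 7 to 7 higher at 2 h and 7 to 8 at 8 h, and Rad21-/- counts 6 to 7 and 8 to 8. Between genotypes the range was 1 to 1 higher and 2 to 3 lower untreated, 1 to 1 and 3 to 3 at 2 h, and 0 to 0 and 2 to 4 at 8 h. In wild-type cells at both times and in Rad21-/- cells at 2 h it was 0 to 0 lower. Cd86 at 8 h was 1.95-fold lower in Rad21-/- cells after thinning to 5500 UMIs, 1.56-fold with the other seed and 1.95-fold without 1 pool. The cause of these moves was not tested, beyond fewer cells at the greater depth. Leaving out the wells above 25000 UMIs moved no count. With genes in at least 1% of cells 18400 genes were tested, and background counts moved by over 1.5 times in 10 of 14 cases, while their shares were 6.7% to 19.5% beside 4.63% to 20.1%. No paired analysis was possible because each group is 1 sample without a replicate number, and the directions within pools compare cells of the same samples.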
